A study of Mus musculus with 24 samples.

Results

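The genes described here are 35 mouse genes of fatty acid oxidation and of the response to PPAR alpha, the nuclear receptor that turns this pathway on in the liver. They were chosen by gene symbol from a list of Ppara itself, its well known targets and the enzymes of the pathway. The rule used symbols and no measured value, but the members were chosen with earlier results of these data known. All 35 were among the 22429 genes of the table of ribosome footprint counts, and all 35 were among the 12211 genes that passed the filter on low counts. They were described in all 24 libraries, with the peroxisomal, mitochondrial and ketogenic enzymes apart.

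Ribosome profiling sequences the stretches of mRNA that ribosomes protect from RNase, so a gene's count combines its mRNA level with how often each mRNA is translated. It was done here on 24 liver samples, 4 in each of 6 groups, from male F1 hybrids of C57BL6J and FVBN mice. The mutants were Ercc1 Δ/- mice, which carry a truncated and a null allele of a DNA repair endonuclease subunit and age early. They comprised mutants at 16 weeks under 30% dietary restriction, mutants at 16 weeks fed freely and mutants at 7 weeks fed freely. The wild types were fed freely at 104 weeks, under 30% restriction at 16 weeks, or fed freely at 16 weeks. All groups ate the same synthetic pellet diet, restriction began at 7 weeks at 10% and was raised weekly, restricted animals received their ration just before the dark period, and per the labels' protocols no food was given before collection on the last day. The mutation was carried in the whole body and not in liver cells alone.

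In hepatocytes a fatty acid is first joined to coenzyme A, then burned by rounds of beta-oxidation. Very long chains are shortened in peroxisomes, long chains enter mitochondria through the carnitine shuttle, and in fasting the acetyl-CoA that results is turned into ketone bodies. PPAR alpha, bound to its partner RXR, switches on genes of each of these steps, most strongly in fasting. Among the members, Ppara is the regulator. Slc27a2 and Acsl1 activate fatty acids, while Cpt1a, Slc25a20 and Cpt2 form the carnitine shuttle. Ehhadh, Hsd17b4, Acaa1a, Acaa1b, Decr2, Eci2 and Ech1 were grouped under peroxisomal oxidation, though Eci2 and Ech1 are also found in mitochondria, and 13 members act in mitochondrial oxidation, including the electron carriers Etfa, Etfb and Etfdh. Acot1 to Acot4 are thioesterases, which release the fatty acid from coenzyme A in the cytosol (Acot1), mitochondria (Acot2) or peroxisomes (Acot3 and Acot4). Bdh1 interconverts the ketone bodies acetoacetate and beta-hydroxybutyrate. Fabp1, Vnn1, Pdk4 and Angptl4 are PPAR alpha targets outside these chains of reactions.

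Libraries held between 13366558 and 27084259 counts, and the members together took 0.976% to 2.12% of them. Levels are CPM, a gene's count relative to all counts of its library, after TMM scaling. Changes are log2 changes ± SE from edgeR's quasi-likelihood test over all 12211 genes, and a gene rose or fell where the Benjamini-Hochberg adjusted p over all of them was under 0.05. Ercc1 itself averaged 0.563 ± 0.232 CPM in fed mutants and 2.72 ± 0.727 CPM in fed wild types at 16 weeks (SD, n = 4 each), and its footprints were between 0.0501 and 0.82 CPM in every mutant library and between 1.92 and 4.86 CPM in every wild-type library. All 16 hepatocyte markers had counts in every group, among them albumin, which took 4.68% to 18.6% of the counts. Because the tissue is bulk liver, fewer cells of a type and less RNA per cell cannot be told apart. CPM is not corrected for gene length, so levels are compared between groups for 1 gene and not between genes. The members of the Acot group lie next to each other on chromosome 12 and resemble each other closely, as do Acaa1a and Acaa1b on chromosome 9. How reads that fit several genes were counted is not given in the sources used here, so each of these 6 genes is uncertain taken singly.

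**Figure D1:**
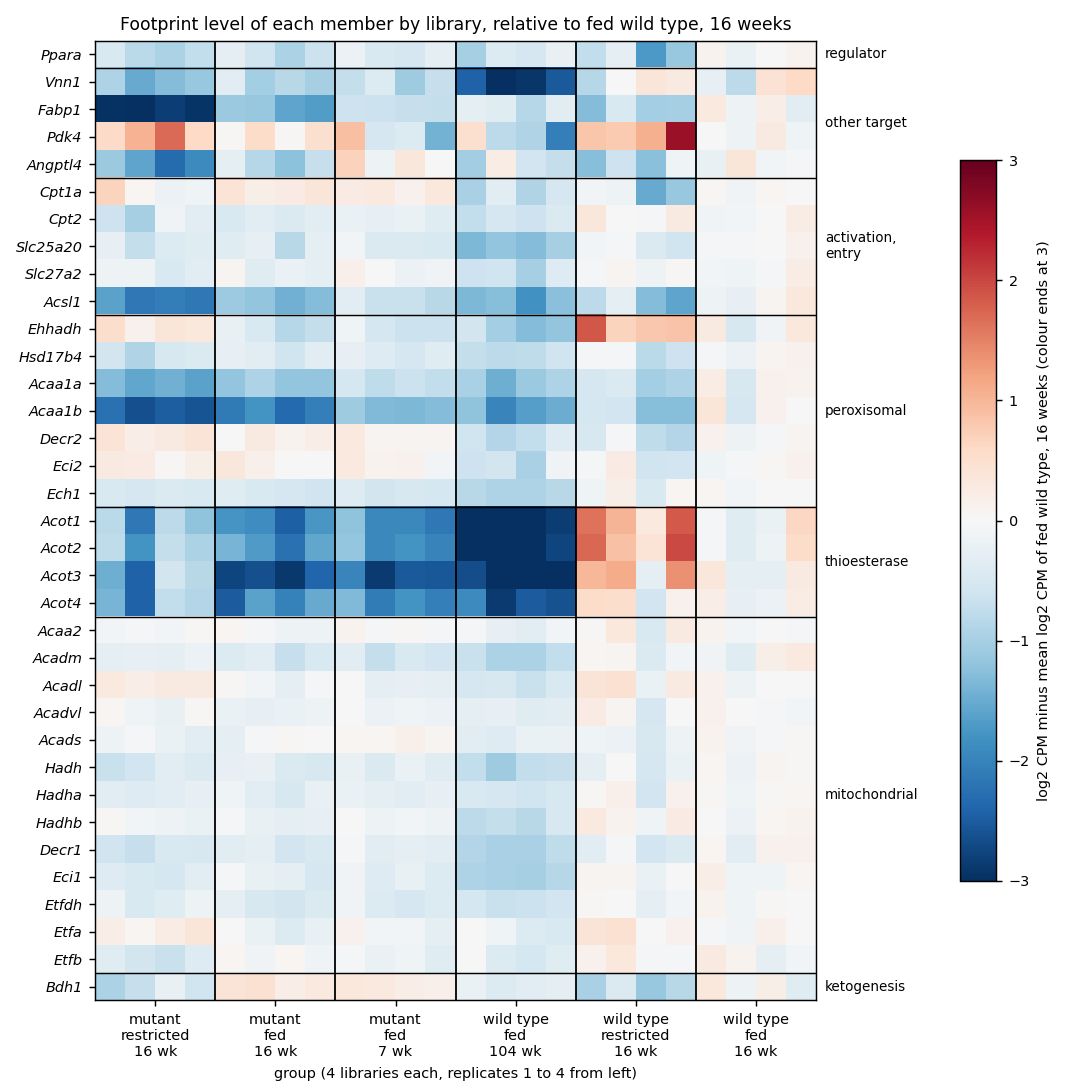
Each cell is 1 library's log2 CPM of 1 member minus the mean log2 CPM of that member in fed wild types at 16 weeks; columns are the 24 libraries by group, lines of cells are the 35 members by role, and the colour scale ends at 3 on either side. The 4 thioesterases are blue in all mutant groups and in old wild types and mostly red in restricted wild types, while most mitochondrial genes stay pale outside the old wild types.

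The first comparison asked how the early ageing mutants differ from wild types of the same age under free feeding. In fed mutants at 16 weeks, 13 of the 35 members fell and 0 rose, where 5.04% of all tested genes fell and 5.69% rose. The falls included the thioesterases (4 of 4), the peroxisomal thiolases Acaa1a and Acaa1b, the acyl-CoA synthetase Acsl1 and the fatty acid carrier Fabp1. Of the 13 mitochondrial genes 3 fell, each by less than 1.5-fold, and all 13 log2 changes were negative. The median log2 change was -0.38 over the members and 0.01 over all genes tested, and 18 members had all mutant libraries below all wild-type libraries, where 11.4% of all genes did, while 1 had them all above, where 10.9% did.

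Acot3, a peroxisomal thioesterase, had 19.1, 20.9, 17.5 and 24.9 CPM in fed mutants, against 164, 105, 106 and 156 CPM in fed wild types (6.44-fold lower, log2 change -2.69 ± 0.41, adjusted p = 0.000165). The groups lay apart, with the highest mutant library more than 4-fold below the lowest wild-type library. Acaa1b, a thiolase that cuts the shortened chain in peroxisomes, had 429, 533, 367 and 448 CPM in fed mutants, against 2392, 1304, 2027 and 1881 CPM in fed wild types (4.28-fold lower, log2 change -2.10 ± 0.20, adjusted p = 7.84e-08). Wild-type replicate 2 was the lowest of its group and still above every mutant. Acot1, the cytosolic thioesterase, had 53.1, 50.2, 33.4 and 54.4 CPM in fed mutants, against 174, 142, 158 and 281 CPM in fed wild types (3.95-fold lower, log2 change -1.98 ± 0.34, adjusted p = 0.000535). Its groups did not overlap either, although wild-type replicate 4 stood well above its group.

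Of the other thioesterases, Acot4 changed by -1.87 and Acot2 by -1.73 on the log2 scale (adjusted p = 0.000512 and 0.00109). Fabp1, which carries fatty acids through the hepatocyte's cytosol, ranged over 1302 to 1929 CPM in fed mutants, against 3297 to 5050.1 CPM in fed wild types (log2 change -1.37 ± 0.17, adjusted p = 6.07e-06). Acsl1, which activates long-chain fatty acids, fell 2.4-fold (log2 change -1.27 ± 0.21, adjusted p = 0.000199), and Acaa1a, the companion of Acaa1b, fell 2.2-fold (log2 change -1.14 ± 0.16, adjusted p = 1.74e-05). Ech1, a dienoyl-CoA isomerase, changed by -0.48 and the pantetheinase Vnn1 by -0.86. Among the mitochondrial genes, the medium-chain dehydrogenase Acadm changed by -0.50, Etfdh, which passes electrons to the respiratory chain, by -0.44 and the dienoyl-CoA reductase Decr1 by -0.42.

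Several members were not called. Ehhadh, the bifunctional enzyme of peroxisomal oxidation, had 298 to 461 CPM in fed mutants and 385 to 674 CPM in fed wild types (adjusted p = 0.111). Decr2, a reductase of peroxisomes, and Eci2, an isomerase of peroxisomes and mitochondria, had log2 changes of 0.14 and 0.13, against -2.10 for the peroxisomal Acaa1b. Cpt1a, which controls entry of long chains into mitochondria, had 609.6 to 726 CPM in fed mutants and 505 to 564 CPM in fed wild types (log2 change 0.30 ± 0.23, adjusted p = 0.46), and it was the only member whose mutant libraries all lay above all wild-type libraries. The remaining mitochondrial genes had log2 changes between -0.35 (Hadh, a hydroxyacyl-CoA dehydrogenase) and -0.04 (Etfb).

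Without mutant replicate 3 the number of called members was 9, as Acadm, Decr1, Vnn1 and Etfdh were no longer called (adjusted p = 0.0993, 0.124, 0.0963 and 0.0525). Vnn1 also lost its call without mutant replicate 2 or 4 or wild-type replicate 3 or 4 (up to 0.161), Acadm without wild-type replicate 3 or 4 (up to 0.103), and Decr1 without mutant replicate 1 or 4 or wild-type replicate 1, 3 or 4 (up to 0.0953). With library sizes scaled by total counts alone, Acadm, Decr1, Ech1 and Etfdh lost their calls (adjusted p = 0.142, 0.216, 0.0735 and 0.117). When these 2 groups were fitted alone, 19 members were called, all lower: Vnn1 was lost (adjusted p = 0.119), and Ppara, Ehhadh, Hsd17b4, Cpt2, Slc25a20, Hadh and Angptl4 were called (adjusted p from 0.00557 for Ppara to 0.0491 for Ehhadh).

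**Figure D2:**
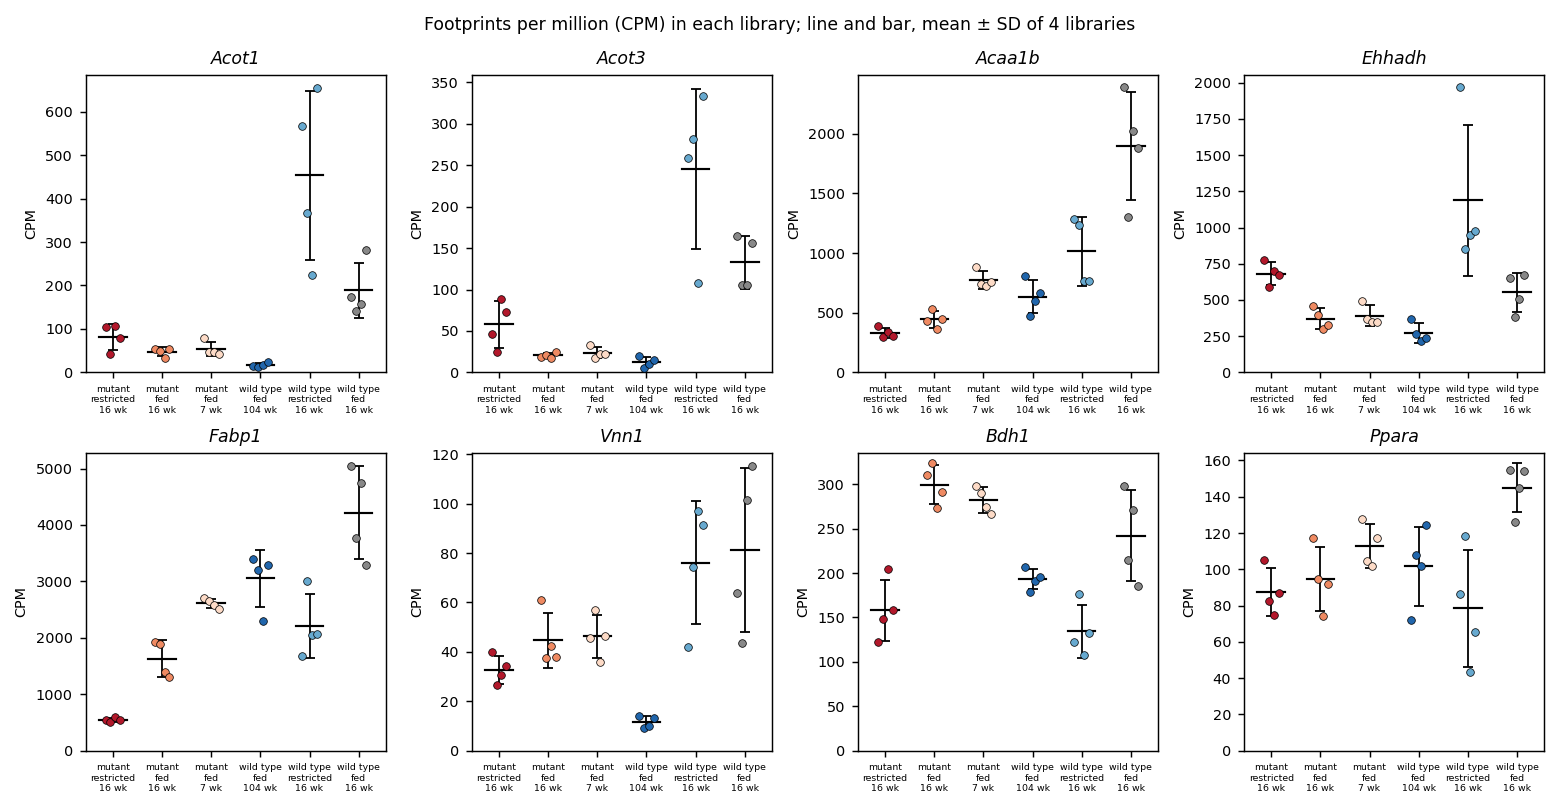
CPM of 8 members in each of the 24 libraries, by group; points are libraries, lines the mean and bars the SD of 4 libraries, and each axis starts at 0. Acot1, Acot3 and Acaa1b are lower in every mutant and old wild-type library than in any fed wild-type library at 16 weeks, Ehhadh is highest in restricted wild types, and Bdh1 is lower in both restricted groups than in the fed group of the same genotype.

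The promoters of the members were searched for the sequence that PPAR alpha and RXR bind, which is AGGTCA repeated in the same direction with a single base between. RefSeq promoter windows (GRCm38.p6, 250 bases before to 50 after the gene start) were found for 30 members, in 33 windows, and AGGTCA, any base (N) and AGGTCA again was searched on both strands. No member window held it exactly, and 0.0396% of all 32851 windows did. With at most 1 mismatch it was in 1 member window (3.03%) and in 0.554% of all windows, and with at most 2 mismatches in 4 member windows (12.1%) and in 3.86% of all windows. A single AGGTCA was in 8 member windows (24.2%) and in 16.3% of all windows. Mismatches were counted at every base of the motif except N, and each window was counted once, by its best match. The windows of Fabp1 and Acot4, both called lower in fed mutants, and of Etfa, which was not, are shown on the gene's strand with the match in capitals, where it reads on the opposite strand in each.
Fabp1, chr6:71199782-71199854 (+), 1 mismatch, match starting 67 bases upstream of the gene start: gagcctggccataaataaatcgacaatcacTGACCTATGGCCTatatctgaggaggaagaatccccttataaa
Acot4, chr12:84038336-84038378 (+), 2 mismatches, match starting 13 bases upstream of its window's start site: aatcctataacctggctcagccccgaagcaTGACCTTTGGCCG
Etfa, chr9:55512278-55512350 (-), 2 mismatches, match starting 77 bases upstream of the gene start: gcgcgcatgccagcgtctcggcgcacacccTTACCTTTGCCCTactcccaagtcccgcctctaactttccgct
The Acot4 window precedes a start site inside the RefSeq gene span (chr12:84037254-84044723), not the outer end of that span. The fourth member match was in Slc25a20, past the gene start. A match describes these letters and is not a bound site.

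A further 58 genes of the same pathway, peroxisomal partners and PPAR alpha targets that are not among the 35, were counted beside them. In fed mutants 18 of the 58 fell and 4 rose, with a median log2 change of -0.32. Retsat, a retinol saturase and PPAR target, had 268 ± 26.5 CPM in fed mutants and 836 ± 137 CPM in fed wild types (SD, n = 4 each; log2 change -1.64 ± 0.14, adjusted p = 2.08e-08). Crat, the carnitine acetyltransferase, changed by -1.28, the monoglyceride lipase Mgll by -1.26 and the thioesterase Acot5 by -2.20. Of 17 partners and relatives of PPAR alpha, 1 rose and 3 fell (the falls were in Pparg -1.81, Ncoa1 -0.44 and Ncor1 -0.42).

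Markers of other cells moved with genotype too. Macrophage markers rose in 14 of 15 cases, with summed levels of 586 to 779 CPM in fed mutant libraries against 299 to 361 CPM in fed wild-type libraries. Of 16 hepatocyte markers 1 rose and 4 fell, with summed levels of 132708 to 185399 CPM in fed mutants against 189662 to 208073 CPM in fed wild types. No macrophage or hepatocyte marker was at 0 in all libraries of a group. Stellate cell markers rose in 4 of 9 cases (386 to 499 CPM summed in fed mutants against 231 to 335 CPM in fed wild types). Neutrophil markers rose in 2 of 3 tested cases (1.48 to 6.96 against 0.496 to 0.839 CPM, with Camp at 0 in all fed mutant libraries) and B and plasma cell markers in 1 of 3 (5.14 to 14.1 against 1.4 to 4.23 CPM). Of 11 fasting and feeding markers 2 fell, among them liver pyruvate kinase (Pklr), which is high after feeding (log2 change -0.95). Of 16 clock genes 1 fell, and the rhythmic genes Nr1d1 and Dbp were not called (0.19 and 0.10). The part of any of these in the members' changes was not tested.

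The second comparison set old wild types against young ones. At 104 weeks 24 of the 35 members fell and 0 rose, where 4.59% of all genes fell and 4.75% rose, and all 35 log2 changes were negative. The falls were in all 4 thioesterases, all 7 peroxisomal genes, 4 of the 5 genes of activation and entry and 8 of the 13 mitochondrial genes. The ketogenesis class held 1 gene, Bdh1, which was lower but not called (log2 change -0.33, unadjusted p under 0.05 by the same test). The median log2 change was -0.66 over the members and 0.01 over all genes. In 27 members every old library lay below every young library, where 8.98% of all genes did, and in 0 members every old library lay above, where 8.64% of all genes did. This comparison shares its fed wild-type libraries at 16 weeks with the genotype comparison.

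Acot1 had 14.7, 13.2, 17 and 25 CPM in old wild types, against 174, 142, 158 and 281 CPM in young ones (10.8-fold lower, log2 change -3.43 ± 0.36, adjusted p = 2.49e-06). Acot3 had 20.4, 5.51, 10.1 and 14.6 CPM in old wild types, against 164, 105, 106 and 156 CPM in young ones (10.5-fold lower, log2 change -3.39 ± 0.42, adjusted p = 2.58e-05). Acot2, the mitochondrial thioesterase, had 10.9, 10.2, 13.6 and 18.2 CPM in old wild types, against 119, 95.2, 109 and 180.5 CPM in young ones (9.52-fold lower, log2 change -3.25 ± 0.34, adjusted p = 2.21e-06). In each of the 3 genes the highest old library lay below the lowest young library, by more than 5-fold.

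Vnn1, a pantetheinase that frees cysteamine and pantothenate, ranged over 8.99 to 14 CPM in old wild types, against 43.5 to 115 CPM in young ones (log2 change -2.82 ± 0.29, adjusted p = 8.38e-07), and Acot4 fell 5.46-fold (log2 change -2.45 ± 0.33, adjusted p = 4.93e-05). Among the genes of entry, Acsl1 fell 2.69-fold and Slc25a20, the carnitine acylcarnitine carrier of the inner mitochondrial membrane, fell 2.31-fold (adjusted p = 7.34e-05 and 3.82e-06). The fatty acid activating enzyme Slc27a2 and the inner membrane transferase Cpt2 changed by -0.64 and -0.58. Cpt1a had 277 to 429.8 CPM in old wild types and 505 to 564 CPM in young ones and was not called (log2 change -0.66 ± 0.23, adjusted p = 0.078).

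In the peroxisomal group the log2 changes ran from -1.58 in Acaa1b through -1.13 in Acaa1a, -1.03 in Ehhadh, -0.88 in Ech1, -0.72 in the D-bifunctional protein Hsd17b4 and -0.65 in the dienoyl-CoA reductase Decr2 to -0.53 in the enoyl-CoA isomerase Eci2. The call of Eci2 was lost without wild-type replicate 1, 2, 3 or 4 of the young group or replicate 1, 2 or 3 of the old group (adjusted p up to 0.165), without robust fitting (0.054) and with total counts alone (0.0987). No other call of this comparison was lost under any alternative that was run.

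The 8 mitochondrial genes that fell were Eci1, an enoyl-CoA isomerase (-0.94), Decr1 (-0.90), Acadm (-0.84), Hadh (-0.80), the trifunctional protein subunits Hadhb and Hadha (-0.70 and -0.51), Etfdh (-0.60) and the long-chain dehydrogenase Acadl (-0.53). Adjusted p ran from 4.57e-06 for Eci1 to 0.0109 for Hadha. The 5 that were not called were the very-long-chain dehydrogenase Acadvl (-0.31), the short-chain dehydrogenase Acads (-0.27), both subunits of the electron-transferring flavoprotein, Etfa (-0.24) and Etfb (-0.33), and the thiolase Acaa2 (-0.17). Fabp1 had 2299 to 3400.1 CPM in old wild types and 3297 to 5050.1 CPM in young ones, which overlapped (log2 change -0.47 ± 0.17, adjusted p = 0.0885). The pyruvate dehydrogenase kinase Pdk4 and the lipoprotein lipase inhibitor Angptl4 were not called (-0.58 and -0.46).

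Of the 58 other pathway genes 23 fell and 1 rose in old wild types, with a median log2 change of -0.46. Cyp4a31 and Cyp4a32, omega-hydroxylases of a family of near-identical genes and uncertain taken singly, changed by -3.91 and -3.89, Crat by -2.25 and Retsat by -1.87. Clock genes differed strongly between the same libraries. Nr1d1 averaged 37.9 ± 14.8 CPM in old wild types and 2.83 ± 2.18 CPM in young ones (SD, n = 4 each; log2 change 3.68 ± 0.43, adjusted p = 5.11e-06). Dbp averaged 30.6 ± 17.6 CPM in old wild types and 3.89 ± 1.38 CPM in young ones (log2 change 2.96 ± 0.36, adjusted p = 8.25e-06), and 3 of 16 clock genes rose and 4 fell. The hour of collection of each liver is not given in the sources used here, and its part in the members' fall was not tested. Macrophage markers rose in 10 of 15 cases (477 to 615 CPM summed in old libraries against 299 to 361 CPM in young ones), and all 3 tested B and plasma cell markers and 2 of 3 tested neutrophil markers rose (summed 34.9 to 83.1 against 1.4 to 4.23 CPM and 3.87 to 9.54 against 0.496 to 0.839 CPM). The neutrophil markers Camp and Mpo were at 0 in all old libraries. Of 16 hepatocyte markers 2 rose and 1 fell, and 1 of 9 stellate cell markers rose. The part of these cells was not tested.

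Fed mutants at 16 weeks were also set directly against wild types at 104 weeks, which differ in both genotype and age. Of the 35 members 15 rose and 1 fell in the mutants, where 6.42% of all genes rose and 6.31% fell. The median log2 change was 0.43 over the members and -0.01 over all genes, and all 13 mitochondrial genes had a positive change, 5 of them called. All mutant libraries lay above all old libraries in 16 members and below them in 1, where 9.56% and 9.64% of all genes did so. The comparison was added after the other values were known, and it shares the mutant libraries with the first comparison and the old libraries with the second.

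Vnn1 had 61.1, 37.5, 42.4 and 37.9 CPM in fed mutants, against 14, 8.99, 9.91 and 13.1 CPM in old wild types (3.89-fold higher, log2 change 1.96 ± 0.28, adjusted p = 4.84e-05). Acot2 had 46.8, 37.5, 25.8 and 41.2 CPM in fed mutants, against 10.9, 10.2, 13.6 and 18.2 CPM in old wild types (2.86-fold higher, log2 change 1.52 ± 0.33, adjusted p = 0.00345). Acot1 had 53.1, 50.2, 33.4 and 54.4 CPM in fed mutants, against 14.7, 13.2, 17 and 25 CPM in old wild types (2.73-fold higher, log2 change 1.45 ± 0.34, adjusted p = 0.00659). Mutant and old libraries did not overlap in any of the 3 genes. Acot3 and Acot4 were not called (0.70 and 0.58).

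The fall was in Fabp1, which had 1929, 1885, 1391 and 1302 CPM in fed mutants, against 3400.1, 3207, 2299 and 3298 CPM in old wild types (log2 change -0.91 ± 0.17, adjusted p = 0.000832), without overlap. Cpt1a rose 1.95-fold, Slc25a20 1.74-fold, Decr2 1.72-fold, Eci1 1.6-fold, Eci2 1.58-fold and Bdh1 1.55-fold, with adjusted p from 0.000232 (Eci1) to 0.0102 (Eci2). The other 6 that rose, Hadhb, Decr1, Hadh, Slc27a2, Acadl and Ech1, did so by 1.33-fold to 1.43-fold. Acaa1a, Acaa1b and Acsl1 were not called (-0.01, -0.52 and 0.16). Calls of Acadl, Slc27a2, Ech1 and Hadh were lost without some single library: Acadl and Ech1 without mutant replicate 1 (adjusted p = 0.0726 and 0.0552), Slc27a2 without mutant replicate 1 or old replicate 1 or 3 (up to 0.113), Acadl also without mutant replicate 4 or old replicate 3 (up to 0.0756) and Hadh without old replicate 2 (0.0574). Acaa1b was called lower without old replicate 2 (adjusted p = 0.0407). Of the 58 other pathway genes 12 rose and 1 fell, led by Cyp4a31 (2.94), Cyp4a32 (2.90), Cyp4a10 (3.36) and the fatty acid receptor Cd36 (1.65). Nr1d1 and Dbp were lower in the mutants (-3.49 and -2.86), and 3 clock genes rose and 5 fell. All 3 tested B and plasma cell markers fell (5.14 to 14.1 CPM summed in fed mutants against 34.9 to 83.1 CPM in old wild types). Stellate cell markers rose in 4 of 9 cases (386 to 499 against 304 to 401 CPM), and 1 of 15 macrophage and 1 of 8 endothelial markers rose. Of 11 fasting and feeding markers 4 fell, and of 16 hepatocyte markers 3 fell. The part of these in the members' changes was not tested.

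**Figure D3:**
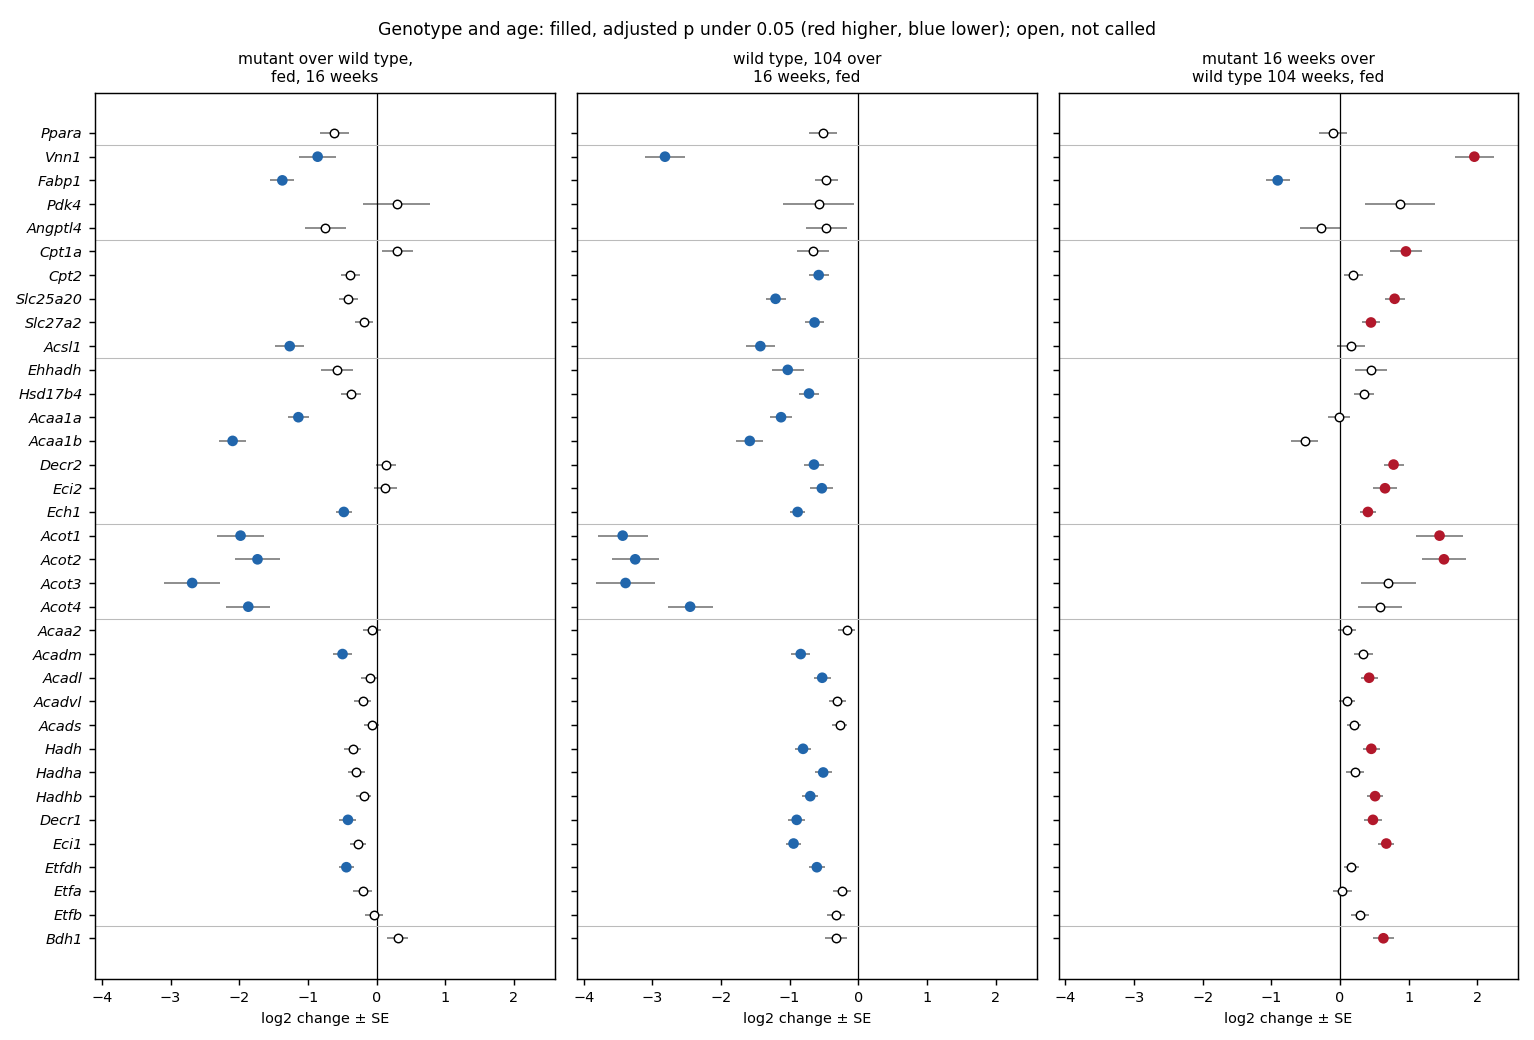
Log2 change ± SE of the 35 members in fed mutants over fed wild types at 16 weeks (left), in wild types at 104 over 16 weeks (middle) and in fed mutants at 16 weeks over wild types at 104 weeks (right); filled points passed an adjusted p under 0.05 and open points did not. On the left 13 members are filled and lower, in the middle 24 are filled and lower, and on the right 15 are filled and higher and Fabp1 is filled and lower.

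Within the mutants, 16 weeks was set against 7 weeks. None of the 35 members was called by edgeR's quasi-likelihood test, where 0.246% of all genes rose and 0.188% fell. Of the 35 members 5 had an unadjusted p under 0.05, as had 1168 of all 12211 genes. All 5 were lower at 16 weeks, and DESeq2 called 2 of them, Acaa1b and Fabp1 (adjusted p = 0.0118 and 0.018), and 167 of all genes. Angptl4 had 50.3 to 97.3 CPM at 16 weeks and 106 to 193 CPM at 7 weeks (log2 change -0.98 ± 0.30, adjusted p = 0.202). Acaa1b had 367 to 533 CPM at 16 weeks and 727 to 886 CPM at 7 weeks (log2 change -0.81 ± 0.19, adjusted p = 0.0546). Fabp1 had 1302 to 1929 CPM at 16 weeks and 2517 to 2708 CPM at 7 weeks (log2 change -0.68 ± 0.17, adjusted p = 0.0678). Neither these 3 genes nor Acsl1, Acaa1a and Acads overlapped between the ages, where 5.69% of all genes had all 16-week libraries lower, and 0 members had them all higher, where 4.98% of all genes did. None of the thioesterases was called, and they summed to 106 to 162 CPM at 16 weeks and 122 to 215 CPM at 7 weeks, against 442 to 755 CPM in fed wild types at 16 weeks. Wild types of 7 weeks were not analysed here, so these levels were not set against wild types of that age. Of the 58 other pathway genes none was called, the smallest adjusted p being 0.162 (Acox3). Macrophage markers rose in 3 of 15 cases and neutrophil markers in 1 of 3 tested, and all 15 macrophage changes were positive. Macrophage markers summed to 586 to 779 CPM at 16 weeks and 357 to 531 CPM at 7 weeks. Of 16 clock genes and 11 fasting and feeding markers 0 were called. All 16-week libraries lay below all 7-week ones in 6 of these clock genes and 4 of these fasting and feeding markers. In 0 of either list did they all lie above. The part of these genes and cells in the members' changes was not tested.

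Dietary restriction was compared with free feeding in each genotype at 16 weeks. In mutants 3 members rose and 5 fell, where 5.59% of all genes rose and 6.04% fell. The rises were in Acot3, Ehhadh and Etfa and the falls in Fabp1, Angptl4, Bdh1, Acsl1 and Etfb, and the median log2 change was -0.03 over the members and 0.00 over all genes. All restricted libraries lay above all fed ones in 5 members and below in 5, where 8.43% and 9.03% of all genes did so.

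Acot3 had 46.9, 24, 88.3 and 72.5 CPM in restricted mutants, against 19.1, 20.9, 17.5 and 24.9 CPM in fed mutants (2.81-fold higher, log2 change 1.49 ± 0.39, adjusted p = 0.0167), with restricted replicate 2 inside the range of the fed group. Ehhadh had 775, 587, 697 and 669 CPM in restricted mutants, against 461, 394, 298 and 330.1 CPM in fed mutants (1.84-fold higher, log2 change 0.88 ± 0.23, adjusted p = 0.0131), without overlap. Etfa, the alpha subunit of the electron-transferring flavoprotein, had 423, 381, 425 and 474 CPM in restricted mutants, against 365, 319, 276 and 313 CPM in fed mutants (1.34-fold higher, log2 change 0.42 ± 0.13, adjusted p = 0.0398). Its lowest restricted library was just above its highest fed one, while its partner Etfb fell (log2 change -0.46 ± 0.13, adjusted p = 0.0241).

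Fabp1 had 536, 499.9, 590.4 and 539 CPM in restricted mutants, against 1929, 1885, 1391 and 1302 CPM in fed mutants (3.01-fold lower, log2 change -1.59 ± 0.18, adjusted p = 8.30e-07), and the restricted libraries lay close together, far below every library of the other groups. Angptl4 had 54.5, 39.4, 24.1 and 31.7 CPM in restricted mutants, against 97.3, 66, 50.3 and 73.4 CPM in fed mutants (1.92-fold lower, log2 change -0.94 ± 0.30, adjusted p = 0.0474), with overlap between the groups. Bdh1 had 122, 148, 205 and 158 CPM in restricted mutants, against 310.2, 324, 273 and 291 CPM in fed mutants (1.89-fold lower, log2 change -0.92 ± 0.16, adjusted p = 0.000263), without overlap. Acsl1 fell 1.65-fold (log2 change -0.73 ± 0.21, adjusted p = 0.023).

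Only Ehhadh, Fabp1 and Bdh1 kept their calls under every alternative. Without restricted replicate 3 the called members numbered 3, as Acot3, Angptl4, Etfa, Etfb and Acsl1 lost their calls (adjusted p = 0.0552, 0.122, 0.0665, 0.0753 and 0.0532), and without fed replicate 1 or 2 or restricted replicate 2 or 4 they numbered 5. Angptl4 and Etfa were each lost without 6 of the 8 single libraries, Acsl1 without 5 and Etfb without 4.

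In wild types restriction raised 4 members and lowered 7, where 5.44% of all genes rose and 6.71% fell. Pdk4, Acot2, Acot1 and Ehhadh rose, and Fabp1, Acsl1, Acaa1b, Ppara, Bdh1, Acaa1a and Decr2 fell. Peroxisomal genes thus changed in both directions, Ehhadh upwards and Acaa1a, Acaa1b and Decr2 downwards, while 0 of 13 mitochondrial genes were called. Of these 13, 2 had an unadjusted p under 0.05, as had 3271 of all 12211 genes. DESeq2 called Decr1 among the 13, and it called 1886 of all genes. The median log2 change was -0.08 over the members and 0.02 over all genes. All restricted libraries lay above all fed ones in 2 members and below in 6, where 6.35% and 8.25% of all genes did so. The fed libraries are those of the genotype and age comparisons.

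Pdk4, the kinase that shuts pyruvate dehydrogenase off, had 7.36, 7.09, 8.65 and 25.2 CPM in restricted wild types, against 4.07, 3.67, 4.96 and 3.72 CPM in fed wild types (2.9-fold higher, log2 change 1.54 ± 0.48, adjusted p = 0.0408), and restricted replicate 4 stood far above the other 3. Acot2 had 405, 224, 164 and 484 CPM in restricted wild types, against 119, 95.2, 109 and 180.5 CPM in fed wild types (2.53-fold higher, log2 change 1.34 ± 0.32, adjusted p = 0.00764). Acot1 had 567, 368, 225 and 653 CPM in restricted wild types, against 174, 142, 158 and 281 CPM in fed wild types (2.4-fold higher, log2 change 1.26 ± 0.33, adjusted p = 0.0153). In both thioesterases restricted replicate 3 fell within the fed range, and the other 3 lay above it. Ehhadh rose 2.15-fold (log2 change 1.10 ± 0.23, adjusted p = 0.00257), with 852 to 1968 CPM in restricted wild types and 385 to 674 CPM in fed wild types. Acot3 and Acot4 were not called (0.89 and 0.21).

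Fabp1 had 1677, 3009, 2057 and 2069 CPM in restricted wild types, against 5050.1, 3761, 4747 and 3297 CPM in fed wild types (1.91-fold lower, log2 change -0.94 ± 0.17, adjusted p = 0.000686). Acsl1 had 1159.8, 1639, 812 and 662 CPM in restricted wild types, against 1791, 1673, 2116 and 2488 CPM in fed wild types (1.89-fold lower, log2 change -0.92 ± 0.21, adjusted p = 0.00461). Acaa1b had 1286, 1239.6, 766 and 763 CPM in restricted wild types, against 2392, 1304, 2027 and 1881 CPM in fed wild types (1.88-fold lower, log2 change -0.91 ± 0.19, adjusted p = 0.00267). None of the 3 overlapped, though in each the highest restricted library lay closely under the lowest fed library. Bdh1 had 122, 177, 107 and 133 CPM in restricted wild types, against 298, 214, 271 and 185 CPM in fed wild types (1.8-fold lower, log2 change -0.85 ± 0.16, adjusted p = 0.000808), also without overlap. Acaa1a and Decr2 changed by -0.72 and -0.50, with overlapping libraries.

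Without restricted replicate 4, Pdk4 was 0.93 on the log2 scale (adjusted p = 0.227), Acot1 and Decr2 lost their calls (0.063 and 0.152) and the called members numbered 8; Pdk4 also lost its call without any 1 of the fed replicates (up to 0.0959), Acot1 without fed replicate 3 (0.0521), and Decr2 without fed replicate 1 or 4 or restricted replicate 3 (up to 0.0898). When these 2 groups were fitted alone, 7 members were called, and Ppara, Acaa1a, Decr2 and Acsl1 were not (adjusted p = 0.0609, 0.0614, 0.155 and 0.0666).

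The response to restriction was compared between the genotypes as the mutant change minus the wild-type change. None of the 35 members differed (0.516% of all genes were higher and 0.287% lower by that test). Of the members 4 had an unadjusted p under 0.05, as had 1552 of all 12211 genes. The 4 were Ppara (0.77 ± 0.30, adjusted p = 0.245), Decr2 (0.69), Fabp1 (-0.65) and Etfb (-0.54), and DESeq2 called 0 members. Without restricted wild-type replicate 2 the differences of Ppara and Decr2 were called (adjusted p = 0.0466 and 0.0101). A change called in 1 genotype and not in the other, such as that of Acot1 or Pdk4, is therefore not shown to differ between them. Among the 58 other pathway genes 3 differed, each higher in the mutant response: Cd36 (3.55), the peroxisomal oxidase Acox2 (1.36) and the triglyceride lipase Pnpla2 (1.43).

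Outside the members, 15 of the 58 pathway genes rose and 7 fell with restriction in mutants, and 8 rose and 11 fell in wild types. Scp2, a peroxisomal sterol carrier and thiolase, fell in both (-1.25 in mutants and -1.20 in wild types). In mutants Cyp4a31 and Pnpla2 rose (2.16 and 1.78) and the acyl-CoA synthetase Acsm1 fell (-0.97), and in wild types Cd36 and Acox3 fell (-2.18 and -0.83) and Retsat rose (0.85). The coactivator Ppargc1a averaged 16.9 ± 20.3 CPM in restricted mutants and 3.52 ± 0.903 CPM in fed mutants (log2 change 2.25 ± 0.57, adjusted p = 0.0126), with an SD above the mean in the restricted group, and the nuclear receptor Esrra rose in both genotypes (0.69 in mutants and 0.77 in wild types). Clock genes moved with restriction as well. Nr1d1 changed by -1.67 in mutants and -2.23 in wild types, and Dbp by -1.05 in mutants, where it was not called, and -1.76 in wild types. Of 16 clock genes 1 rose and 1 fell in mutants, and 2 rose and 4 fell in wild types. Macrophage markers rose in 0 of 15 cases in mutants and in 3 of 15 in wild types, and stellate cell markers in 0 of 9 and 4 of 9. Of 3 tested B and plasma cell markers 0 rose in mutants and 2 in wild types. Of 8 endothelial markers 2 rose and 1 fell in mutants and 2 rose in wild types. Of 16 hepatocyte markers 1 rose and 2 fell in mutants and 1 rose in wild types, and 1 of 11 fasting and feeding markers fell in wild types. Of 2 tested fat cell markers 1 rose in mutants (log2 change 1.38), and the other was not called (-3.68). Their whole list summed to 24.6 to 41.9 CPM in restricted mutants, against 8.53 to 16.4 CPM in fed mutants. The fat cell markers Adipoq, Lep, Plin1 and Retn were at 0 in all restricted mutant libraries. The part of clock or cell composition in these changes was not tested.

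Under restriction, mutants were also compared with wild types. Of the 35 members 2 rose and 15 fell, where 9.38% of all genes rose and 8.85% fell. The thioesterases fell in 4 of 4 cases, and peroxisomal genes again divided, with Acaa1a, Acaa1b, Ehhadh and Ech1 lower and Decr2 higher. The median log2 change was -0.25 over the members and -0.01 over all genes. All mutant libraries lay above all wild-type ones in 1 member and below in 14, where 8.31% and 6.87% of all genes did so.

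Decr2 had 335, 292, 307 and 333 CPM in restricted mutants, against 181, 249, 149.7 and 137 CPM in restricted wild types (1.77-fold higher, log2 change 0.82 ± 0.15, adjusted p = 0.000287), without overlap. Cpt1a had 864, 562, 483 and 493 CPM in restricted mutants, against 516, 489, 189.7 and 247 CPM in restricted wild types (1.67-fold higher, log2 change 0.74 ± 0.23, adjusted p = 0.0292), with overlap.

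Acot1 had 103, 41.3, 106 and 78.8 CPM in restricted mutants, against 567, 368, 225 and 653 CPM in restricted wild types (5.5-fold lower, log2 change -2.46 ± 0.34, adjusted p = 4.51e-05). Acot2 had 72.6, 35.2, 74.9 and 63.1 CPM in restricted mutants, against 405, 224, 164 and 484 CPM in restricted wild types (5.19-fold lower, log2 change -2.38 ± 0.33, adjusted p = 3.41e-05). Acot3 had 46.9, 24, 88.3 and 72.5 CPM in restricted mutants, against 258, 282, 108 and 334 CPM in restricted wild types (4.24-fold lower, log2 change -2.08 ± 0.40, adjusted p = 0.001). None of the 3 overlapped, although restricted wild types spread widely and their replicate 3 was the lowest in each. Fabp1 fell 4.07-fold, Acaa1b 3.03-fold, Acot4 2.74-fold, Vnn1 2.32-fold and Acsl1 2.1-fold, with adjusted p from 2.28e-08 (Fabp1) to 0.0029 (Vnn1). Angptl4, Ehhadh, Acaa1a, Cpt2, Etfb, Eci1 and Ech1 fell by 1.31-fold to 1.9-fold.

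The call of Ehhadh was lost without wild-type replicate 1 (adjusted p = 0.113), that of Cpt1a without mutant replicate 1 or wild-type replicate 3 or 4 (up to 0.142), that of Ech1 without wild-type replicate 2 (0.0592) and with total counts alone (0.154), that of Eci1 with total counts alone (0.117), and that of Angptl4 without mutant replicate 2, 3 or 4 or wild-type replicate 2 or 4 (up to 0.144). With these 2 groups fitted alone 11 members were called, and Ehhadh, Cpt1a, Cpt2, Eci1, Ech1 and Angptl4 were not (adjusted p from 0.0746 to 0.205). Of the 58 other pathway genes 9 rose and 9 fell, with Retsat, Crat and Mgll lower (-1.86, -1.60 and -1.44) and Cd36 higher (2.73). Beside these, 7 of 15 macrophage markers rose (625 to 789 CPM summed in restricted mutants against 374 to 577 CPM in restricted wild types), 1 of 16 hepatocyte markers rose and 6 fell, and 1 of 16 clock genes rose and 3 fell, with Nr1d1 and Dbp not called. Stellate cell markers rose in 4 of 9 cases (443 to 596 CPM summed in restricted mutants against 329 to 638 CPM in restricted wild types). Neutrophil markers rose in 1 of 3 tested cases (3.92 to 5.67 against 0.703 to 2.08 CPM). Of 2 tested fat cell markers 1 rose and the other was not called (log2 change -2.74), with 24.6 to 41.9 against 7.46 to 10.2 CPM summed. Of 8 endothelial markers 1 rose and 1 fell, and 1 of 11 fasting and feeding markers fell. Their part was not tested.

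**Figure D4:**
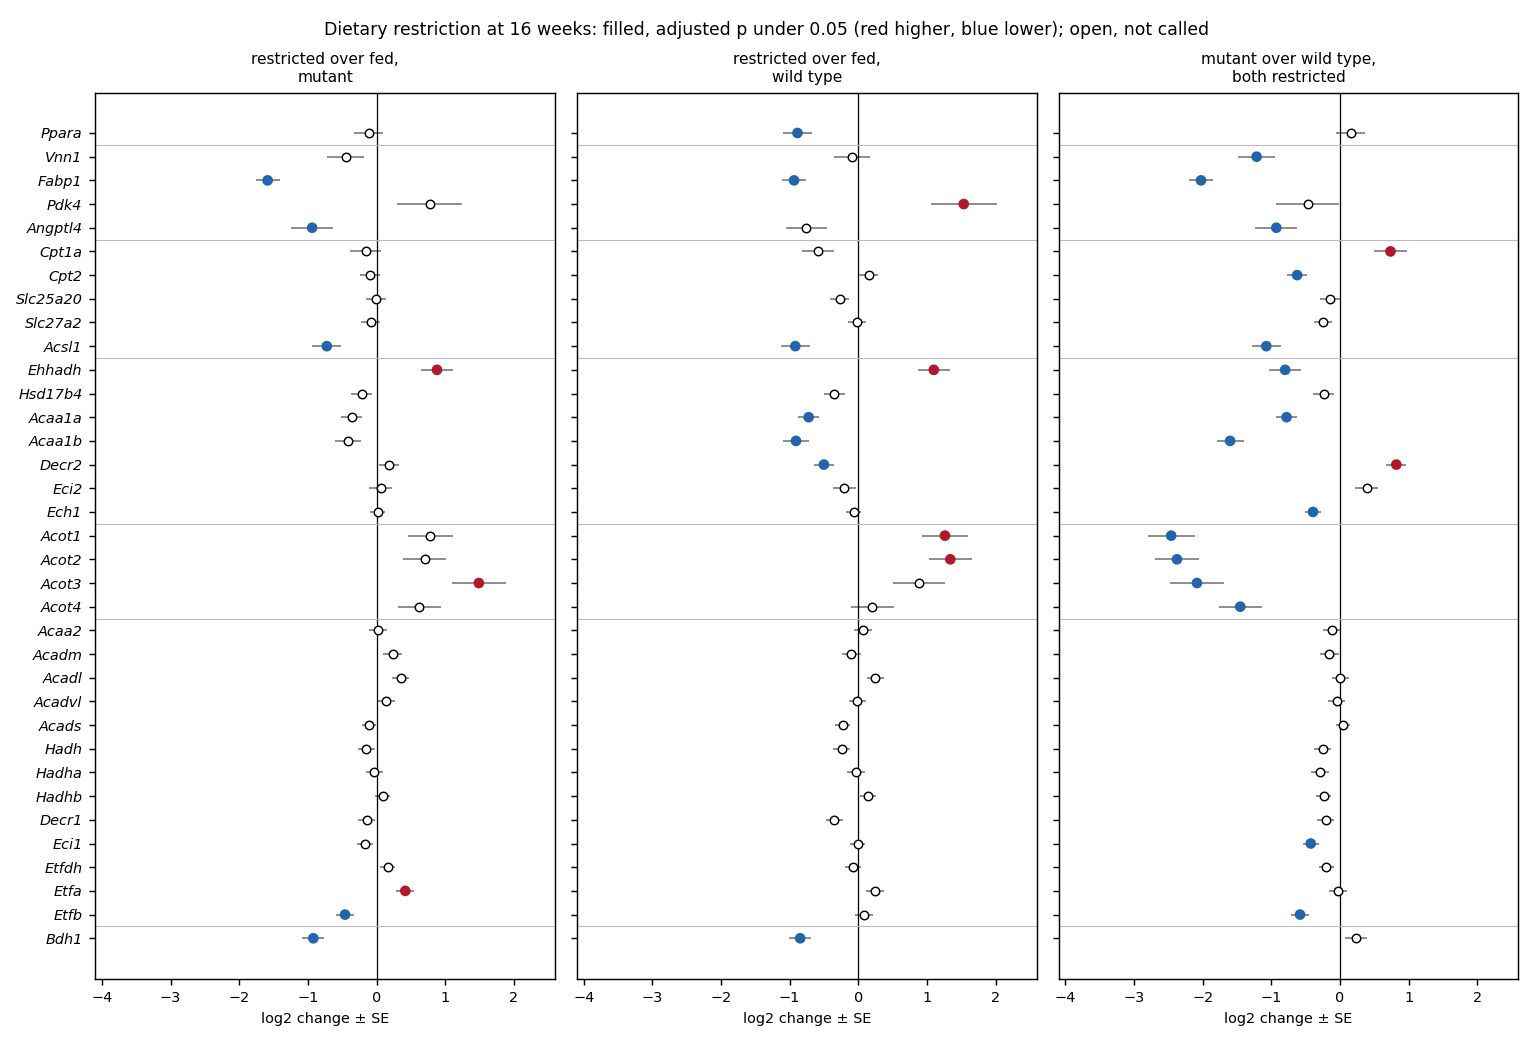
Log2 change ± SE of the 35 members for restricted over fed mutants (left), restricted over fed wild types (middle) and restricted mutants over restricted wild types (right), all at 16 weeks; filled points passed an adjusted p under 0.05. Ehhadh is filled and higher, and Fabp1, Acsl1 and Bdh1 are filled and lower, in both restriction panels, and the 4 thioesterases are filled and lower on the right.

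Ppara itself had its highest mean in fed wild types at 16 weeks. It had 105, 82.4, 74.8 and 87.2 CPM in restricted mutants, 117, 94.9, 74.4 and 91.7 CPM in fed mutants at 16 weeks and 128, 105, 102 and 117 CPM in mutants at 7 weeks. In wild types it had 72, 108, 102 and 125 CPM at 104 weeks, 86.4, 119, 43.4 and 65.4 CPM under restriction and 155, 126, 145 and 154 CPM when fed at 16 weeks. From low to high, the means were 78.4 ± 32 CPM in restricted wild types, 87.5 ± 13 in restricted mutants, 94.6 ± 17.7 in fed mutants, 102 ± 21.9 in old wild types, 113 ± 12.1 in mutants at 7 weeks and 145 ± 13.5 in fed wild types at 16 weeks (SD, n = 4 each). All neighbours in this order overlapped. It was called only for restriction in wild types (1.85-fold lower, log2 change -0.89 ± 0.21, adjusted p = 0.00668), where restricted replicates ran from 43.4 to 119 CPM. Between fed mutants and fed wild types the libraries did not overlap but the change was not called (log2 change -0.62 ± 0.21, adjusted p = 0.0605), except with the replicate block (adjusted p = 0.0458), by DESeq2 (0.0484) and with the 2 groups fitted alone (0.00557). In old wild types it was not called either (log2 change -0.51 ± 0.21, adjusted p = 0.131), other than with the 2 groups fitted alone (0.0497).

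Bdh1, the ketone body enzyme, followed another order. It averaged 158 ± 34.5 CPM in restricted mutants, 299.7 ± 22.3 CPM in fed mutants at 16 weeks, 282 ± 14.5 CPM in mutants at 7 weeks, 193 ± 11.6 CPM in old wild types, 135 ± 29.9 CPM in restricted wild types and 242 ± 51.3 CPM in fed wild types at 16 weeks (SD, n = 4 each). Its libraries were 298, 290.0, 275 and 267 CPM in mutants at 7 weeks and 207, 179, 191 and 196 CPM in old wild types. By mean, fed mutants at 16 and 7 weeks were highest, then fed and old wild types, then restricted mutants and restricted wild types, and all neighbours in that order overlapped. The only calls were its fall under restriction in either genotype and its higher level in fed mutants than in old wild types, and between fed mutants and fed wild types it was not called (log2 change 0.31 ± 0.16, adjusted p = 0.233).

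The sum of the members' CPM put the changes on a common scale, although it weights the abundant genes most. Mitochondrial genes summed to 4142 ± 258 CPM in fed mutants at 16 weeks, 3509.7 ± 218 CPM in old wild types and 4817 ± 295 CPM in fed wild types at 16 weeks (SD, n = 4 each). Peroxisomal genes summed to 2596 ± 221 CPM in fed mutants, 2303 ± 291 CPM in old wild types and 4984 ± 814 CPM in fed wild types. Thioesterases summed to 139 ± 23.8 CPM in fed mutants, 65.3 ± 15.4 CPM in old wild types and 568 ± 141 CPM in fed wild types. Under restriction the thioesterase sum was 252 ± 92.2 CPM in mutants and 1156 ± 450.0 CPM in wild types.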

How the data were processed

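Ribosome footprints of 24 mouse liver samples were analysed from the deposited table of whole read counts per gene, to which the authors had applied no normalization, judged by its values. The submitters' processing notes name build GRCm38.p6 and, with no role or order, cutadapt 3.4, Trimmomatic 0.39, Bowtie2 2.4.2, STAR in versions 2.7.0f and 2.7.8a, Subread 1.6.4 and featureCounts. The annotation release, strand use, the tool behind each table and how reads fitting several genes were handled are not given in the sources used. The matching mRNA libraries and the table of open reading frames, which names transcripts and no genes, were not used here.

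Tests used edgeR 4.0.16 (R 4.3.3; limma 3.58.1). filterByExpr kept 12211 of 22429 genes, TMM scaled the libraries, and all 24 were fitted together by robust quasi-likelihood with a term per group, with 18 residual degrees of freedom and a biological coefficient of variation of 24.15%. Contrasts were tested 2-sided, with Benjamini-Hochberg adjustment over all genes kept and a threshold of 0.05. The SE is the size of the log2 change divided by the square root of F. CPM are counts relative to the effective library size, and log2 CPM used a prior count of 2. The labels number 4 samples per group without saying that each is another animal, so p-values measure the spread between these samples. No pair of libraries agreed within sampling noise. The procedure was tested on simulated data with known changes.

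The members, the companion lists and the tests were chosen with earlier results of these data known. The comparison of fed mutants at 16 weeks with wild types at 104 weeks was added after seeing the data. Libraries are given singly for Ppara, for Bdh1 and, per comparison, for up to 3 called members with the largest rise and the largest fall; each other list is named by at most 4 genes, those of lowest adjusted p, with Nr1d1 and Dbp throughout. The labels do not say whether replicate numbers mark a shared litter or batch. Same-numbered libraries did not deviate together in every pair, and no block was used in the main fit. Alternatives were other scalings, filters and fits, DESeq2 1.42.0, a replicate block, the compared groups alone and each library left out in turn. Levels per gene length and identity between paralogs were not computed. Promoter windows are those of RefSeq. A few genes that the naming rule picks are not reported here.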

Additional observations from a re-analysis of the deposited data

Results flagged for a closer look

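In 17 of 210 sets of 4 libraries, 1 member in 1 group each, the highest or lowest library stood apart from the other 3 by Dixon's test, and chance gives about 1 in 20 such sets. No member's response to restriction differed between genotypes by the interaction test. In restricted wild types, Ehhadh in replicate 1 (1968 CPM, next 979 CPM) and Pdk4 in replicate 4 (25.2 CPM, next 8.65 CPM) stood above the rest, and Acads in replicate 3 (128 CPM, next 158 CPM) and Hadha in replicate 3 (358 CPM, next 553 CPM) stood below the rest. In fed mutants at 16 weeks, Acaa1a in replicate 2 (456 CPM, next 386 CPM) and Hadhb in replicate 1 (300.4 CPM, next 261 CPM) stood above the rest, and Acot1 in replicate 3 (33.4 CPM, next 50.2 CPM) stood below the rest. In mutants at 7 weeks, Slc25a20 in replicate 1 (133 CPM, next 106 CPM), Acadl in replicate 1 (367 CPM, next 311 CPM) and Decr2 in replicate 1 (311 CPM, next 266 CPM) stood above the rest. In wild types at 104 weeks, Hadh in replicate 2 (186 CPM, next 231 CPM), Fabp1 in replicate 3 (2299 CPM, next 3207 CPM) and Acsl1 in replicate 3 (561 CPM, next 783 CPM) stood below the rest. In fed wild types at 16 weeks, Hadh in replicate 2 (341 CPM, next 395 CPM), Hadha in replicate 2 (488 CPM, next 549 CPM) and Decr1 in replicate 2 (162 CPM, next 211 CPM) stood below the rest. In restricted mutants, Acsl1 in replicate 1 (656 CPM, next 475 CPM) stood above the rest. Ehhadh kept its rise in restricted over fed wild types without replicate 1, and Pdk4 lost its call without replicate 4.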

How the results depend on the processing

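Of 89 called member changes over 6 comparisons, 62 kept their call under every alternative that was run, 27 lost it under at least 1, and 0 reversed. Leaving out 1 library gave 9 to 13 called members for fed mutants against fed wild types, 23 to 24 for old against young wild types, 0 for mutants at 16 against 7 weeks, 8 to 14 for restriction in wild types, 3 to 7 for restriction in mutants, 15 to 18 between restricted genotypes, 13 to 16 for mutants against old wild types and 0 to 2 for the interaction. For mutants at 16 against 7 weeks, 0 members were called, against 2 with no filter, 1 with the replicate block, 4 with the compared groups alone and 2 with DESeq2. Single calls not kept were Vnn1 in fed mutants with no filter and with the compared groups alone (adjusted p = 0.0762 and 0.119), Decr1 there with no filter (0.0552), Slc27a2 in mutants against old wild types with the groups alone (0.0643), Pdk4 and Decr2 in restricted wild types with no filter and with total counts alone (0.0869 and 0.108), Angptl4 and Etfa with no filter and Etfb with total counts alone in restricted mutants (0.0938, 0.0735 and 0.0946), and Cpt1a and Angptl4 between restricted genotypes with no filter (0.0622 and 0.0707). With the compared groups alone, 19 members were called for fed mutants against fed wild types (13 over all groups), 7 for restriction in wild types (11) and 11 between restricted genotypes (17). No pairing held throughout the comparisons (same-numbered correlations from -0.19 to 0.25). Between wild-type groups these correlations were -0.08 to 0.14 for age and 0.02 to 0.18 for restriction. Old replicates 1, 2 and 4 correlated most with the young fed library of their own number. The same held for restricted wild-type replicates 1, 3 and 4. The replicate block gave 14 called members for fed mutants against fed wild types, 24 for age and 1 for mutants at 16 against 7 weeks. For restriction it gave 10 in wild types, 8 in mutants and 17 between restricted genotypes. For mutants against old wild types it gave 16, and for the interaction 0. It called Ppara and Ehhadh in fed mutants and lost Vnn1 there and Pdk4 in restricted wild types. Over all genes, 53 were called for mutants at 16 against 7 weeks, against 99 with total counts alone, 436 with the compared groups alone and 167 with DESeq2. With the compared groups alone 2138 were called for fed mutants against wild types (1310 over all groups), 658 for restriction in wild types (1483) and 761 between restricted genotypes (2227). For the interaction DESeq2 called 279 (98). Leaving out 1 library gave 806 to 1090 called genes for fed mutants against wild types, 755 to 1034 for age (1141 with all), 17 to 43 for mutants at 16 against 7 weeks, 941 to 1864 for restriction in wild types, 934 to 1463 in mutants (1420 with all) and 61 to 205 for the interaction. The cause of these shifts was not tested. At these depths every member had counts in every library, and the 4 libraries per group limit what can be called.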

Other observations

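Over the 24 libraries, the genes outside the members whose log2 CPM followed Ppara most closely were Osbpl9 (Pearson r = 0.858), Ppm1k (0.823), Pcx (0.819), Nudt12 (0.812), Nr1i2 (0.810) and Cir1 (0.806), of 7339 genes with a mean of at least 5 CPM. Among those closest to the mean of the 7 peroxisomal members were Aldh3a2 (0.940), Ces1d (0.881), Acad11 (0.866), Pex11a (0.864) and Sod2 (0.839). These coefficients describe libraries that fall into 6 groups and share the scaling of library sizes. Pcx encodes pyruvate carboxylase, Nr1i2 the nuclear receptor PXR and Pex11a a protein of peroxisome division.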
